A study of Mus musculus with 8 samples.

Results

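Wnt proteins are secreted signals that bind Frizzled receptors together with the co-receptors Lrp5 and Lrp6. In the intestine this signal stabilises beta-catenin, which joins Tcf and Lef factors in the nucleus and maintains the stem and progenitor cells of the epithelium. R-spondins strengthen the signal through Lgr receptors by removing the membrane ligases Rnf43 and Znrf3, while Sfrp and Dkk proteins restrain it outside the cell and Axin2 restrains it inside. The genes described here are 52 members of this system: every gene on the array named Wnt, Fzd, Sfrp or Dkk with a number, the 4 R-spondins, Lgr4, Lgr5, Lrp5, Lrp6, Axin2, Rnf43, Znrf3, Tcf7, Lef1, Ascl2 and Smoc2. They were chosen by gene name, with the probe of highest mean signal standing for each gene, out of 36083 genes named on the array.

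The study measured total RNA of small intestine from mouse embryos at stage E18.5 on 8 single-colour Agilent arrays. Wild-type mice (Rfx6+/+, labelled control) gave 4 arrays, and mice homozygous for a deletion of Rfx6 (Rfx6-/-, labelled Rfx6 KO) gave the other 4. The deletion was made by crossing a floxed Rfx6 allele to CMV-Cre, whose promoter is active in most cells including the germline, and then intercrossing heterozygotes, so it was not limited to the intestine. Rfx6 is a transcription factor of the gut and pancreatic endocrine lineage, and the comparison asks which intestinal genes depend on it. The organ holds epithelium, mesenchyme, muscle, nerve, vessels and blood, and fewer cells of a type cannot be told apart from less RNA per cell. Arrays are separate samples in the labels, and where they do not come from separate animals the p-values measure only the spread between these samples.

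Levels are log2 of the background-subtracted signal, with the 75th percentile of each array set to 0; they compare arrays for 1 probe, not probes with each other. Differences are KO minus control in log2 units, and a difference is called at a Benjamini-Hochberg adjusted p under 0.05 over the 23282 genes tested (limma). Of these genes 1140, or 4.90%, passed, 600 lower (2.58%) and 540 higher (2.32%) on the KO arrays; centring arrays on the median gave 252 lower and 544 higher. The Rfx6 probe did not separate the groups (difference 0.38, SE 0.29, limma adjusted p 0.504; well above background on 8 arrays), so it does not check the labels, by which the groups are called. All 7 intestinal epithelium markers passed the filter, with summed signals of 308 to 436 times the 75th percentile on the control and 432 to 512 on the KO arrays. The arrays lay on 1 slide with 1 scan, in 2 rows. Row 1 held control 1 and KO 2, 3 and 4, and row 2 held the others. Probes well above background made up 57.5% to 67.1% of an array.

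Of the 52 members, 36 passed the filter, which keeps a probe if every array of the control group, or every array of the KO group, has it well above background (a scanner call; other probes are described as at background). On all 8 arrays 33 were well above background. The other 3 were Wnt10a, Lef1 and Rspo2. Among the 36, 1 fell and 1 rose on the KO arrays (limma): Sfrp5, a secreted inhibitor, and Wnt10a, a ligand that passed the filter through the KO group alone and so had to differ. With the filter on all 8 arrays Wnt10a was not tested, and the 2 members past the threshold of 33 tested were Sfrp5 and Wnt4. The 2 of 36 are 5.56% of the members tested, near the 4.90% of all genes (2.58% lower and 2.32% higher). An unadjusted p under 0.05 (limma) was found for 10 of the 36, Wnt10a among them, a larger share than the 20.5% of all genes. Groups did not overlap for 7 members, Wnt10a, Wnt4, Wnt11, Wnt5a and Fzd2 higher and Sfrp5 and Wnt1 lower, where 14.7% of all genes did not overlap (5.41% higher and 9.25% lower). The median difference of the members tested was 0.12, with 24 above 0 and 12 below; over all genes it was -0.05, with 60.5% below 0.

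**Figure D1:**
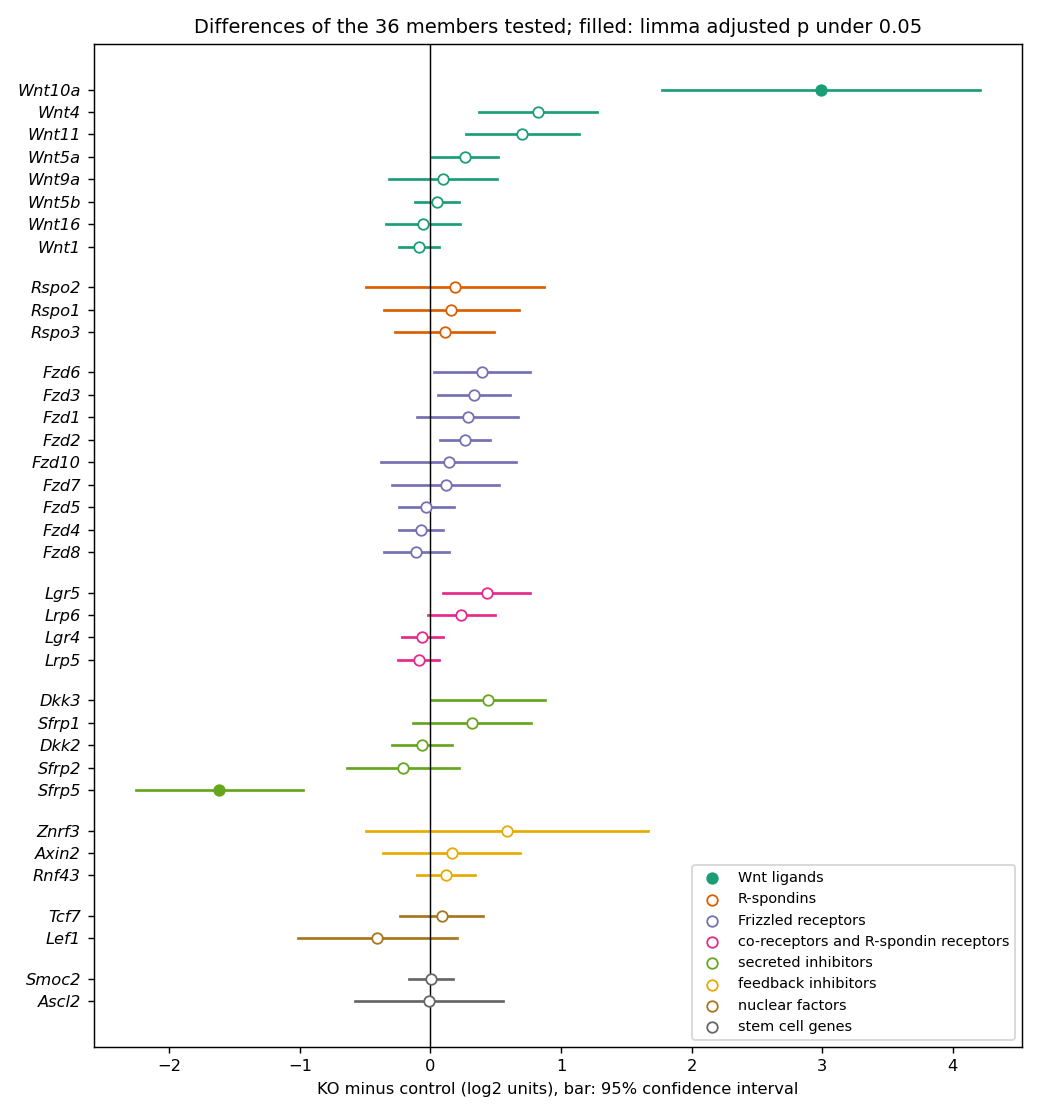
Difference of each of the 36 members tested (KO minus control, log2 units) with its 95% confidence interval, grouped by role; filled points passed the threshold. Wnt10a at 2.99, against control values at background, and Sfrp5 at -1.62 stand outside the other members, which lie between -0.41 and 0.83.

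The RefSeq promoter table (GRCm38.p6) matched 33 of the 52 members. The 250 bases before the transcription start are shown for Sfrp5, the member that fell, and for Wnt4 and Wnt11, the ligands with the next largest differences after Wnt10a; each reads 5′ to 3′ on its gene's strand. Capitals mark matches to CTTTGAT or CTTTGTT, which Tcf and Lef factors bind, or to GTTGCC, part of the X-box bound by RFX proteins, searched on both strands. The windows are chr19:42202253-42202502 on the minus strand for Sfrp5, chr4:137277385-137277634 on the plus strand for Wnt4 and chr7:98834862-98835111 on the plus strand for the first of 2 Wnt11 starts.
Sfrp5: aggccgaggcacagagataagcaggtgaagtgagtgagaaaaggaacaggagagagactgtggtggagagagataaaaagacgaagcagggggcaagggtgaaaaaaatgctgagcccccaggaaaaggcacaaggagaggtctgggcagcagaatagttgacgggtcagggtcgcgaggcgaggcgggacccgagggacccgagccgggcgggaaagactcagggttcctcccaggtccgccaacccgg
Wnt4: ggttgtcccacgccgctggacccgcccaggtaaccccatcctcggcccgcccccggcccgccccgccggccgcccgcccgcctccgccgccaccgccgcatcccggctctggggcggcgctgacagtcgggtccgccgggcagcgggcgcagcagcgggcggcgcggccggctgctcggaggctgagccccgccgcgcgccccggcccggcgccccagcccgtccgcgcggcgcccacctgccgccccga
Wnt11: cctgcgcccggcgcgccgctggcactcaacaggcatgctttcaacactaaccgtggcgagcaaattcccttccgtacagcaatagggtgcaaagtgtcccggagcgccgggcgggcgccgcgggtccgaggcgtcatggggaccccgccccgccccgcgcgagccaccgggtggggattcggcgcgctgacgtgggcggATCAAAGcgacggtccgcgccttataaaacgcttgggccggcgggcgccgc
Wnt11 held 1 Tcf/Lef match, on the opposite strand, beginning 51 bases before the start, and the Sfrp5 and Wnt4 windows held neither motif. A Tcf/Lef match was present in 4 of the 41 member promoters (9.76%), those of Dkk1, Fzd7, Wnt11 and Wnt5b, and in 8.06% of all 32851 promoters. The RFX half-site was present in 1 member promoter, of Lef1 (2.44%), and in 10.4% of all promoters. The window of Wnt4 was 85.2% G and C, that of Wnt11 70.8% and that of Sfrp5 59.6%. These matches describe letters in a short window and do not show binding.

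Among the 19 Wnt ligands, 8 were tested: 1 rose, 0 fell and 7 did not pass (limma; 4 higher and 0 lower at an unadjusted p under 0.05). Wnt10a, which signals through beta-catenin in skin and tooth development, was at background in 4 of 4 controls and well above it on 4 of 4 KO arrays, so it passed the filter through the KO group alone. Its levels were -5.84, -6.44, -7.17 and -6.58 on control arrays 1 to 4. On KO arrays 1 to 4 they were -2.70, -2.36, -4.80 and -4.22. All KO values lay above all control values, with KO 3 and KO 4 lower than KO 1 and KO 2. Because the control values are at background, only a bound is given. Against a floor set by the lowest signals called well above background, Wnt10a was at least 2.35-fold higher on the KO arrays. The fitted difference of 2.99 (SE 0.54, limma adjusted p 0.0159) is no measure of size. With normexp background the difference was 0.86 and with the series matrix values 0.99, both smaller than the bound, which therefore depends on the processing. The probe lies on mm9 chromosome 1, 74850633 to 74850692. The call was lost when slide row was a block (limma adjusted p 0.0523), without the filter (adjusted p 0.0609), with normexp background (adjusted p 0.0857) and with the series matrix values (adjusted p 0.0625). Within each slide row the KO values lay above the control values, which were all at background.

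Wnt4, a ligand with roles in kidney and gonad development that signals mainly outside the beta-catenin route, stood between -2.92 and -2.83 on the control arrays. Its KO levels were -1.57, -2.09, -2.66 and -1.89 on arrays 1 to 4. The groups did not overlap, the control arrays were tight (-2.88 ± 0.03, SD, n = 4) and the KO arrays were spread (-2.05 ± 0.46, SD, n = 4). The difference of 0.83 (SE 0.20) just missed the threshold (limma adjusted p 0.0525). It passed under quantile normalization (0.86, adjusted p 0.0437), median centring (0.89, adjusted p 0.0338), the filter on all 8 arrays (adjusted p 0.0477) and without KO 3 (1.03, adjusted p 0.0048). It was smaller with normexp background (0.51, adjusted p 0.0767) and the series matrix values (0.54, adjusted p 0.0555), and its adjusted p was 0.147 without the filter and 0.116 with the replicate number as a block.

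Wnt11, which acts in convergent cell movements and organ branching, stood at -3.02, -3.06, -3.07 and -3.28 on the control arrays. The KO levels were -1.85, -2.72, -2.74 and -2.29. The lowest KO array was above the highest control array, and KO 1 stood highest, as it did for Wnt4. The difference of 0.70 (SE 0.19) did not pass (limma adjusted p 0.0757). Wnt5a, the main ligand of gut elongation, differed by 0.27 with a 95% confidence interval of 0.01 to 0.52 (limma adjusted p 0.224). Its control levels were -0.10, -0.13, 0.13 and 0.10, and its KO levels 0.22, 0.53, 0.18 and 0.13. The groups only just failed to overlap, with control 3 and KO 4 both at 0.13.

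The Wnt1 probe read 1.02, 1.01, 1.11 and 1.04 on the control arrays and 0.89, 0.98, 1.00 and 0.96 on the KO arrays, a difference of -0.09 (SE 0.07, limma adjusted p 0.519). Its groups did not overlap, but the gap was small. A second Wnt1 probe, at chr15:98623276-98623335 on mm9, was at background on every array, whereas the probe used here, at chr15:98624201-98624260, was on 8. The 2 probes disagree on whether Wnt1 RNA was detected, so the level of this gene is uncertain. Wnt5b, Wnt9a and Wnt16 differed by 0.05, 0.10 and -0.05 and did not pass. A second Wnt16 probe was well above background on 1 array only, so the level of Wnt16 is uncertain too.

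The other 11 ligands did not pass the filter. Wnt2, Wnt3 and Wnt3a were at background throughout, not well above it on any array. Wnt6 was on 2 control and 3 KO arrays, Wnt7b on 1 and 2, and Wnt7a on 1 and 1. Wnt10b and Wnt8a were on 1 control array each, and Wnt8b and Wnt9b on 1 KO array each. Wnt2b, a mesenchymal ligand of the gut, was on KO 1 only: it read -2.83 there and between -5.74 and -5.09 on the other KO arrays, with -6.35 to -5.41 on the control arrays.

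**Figure D2:**
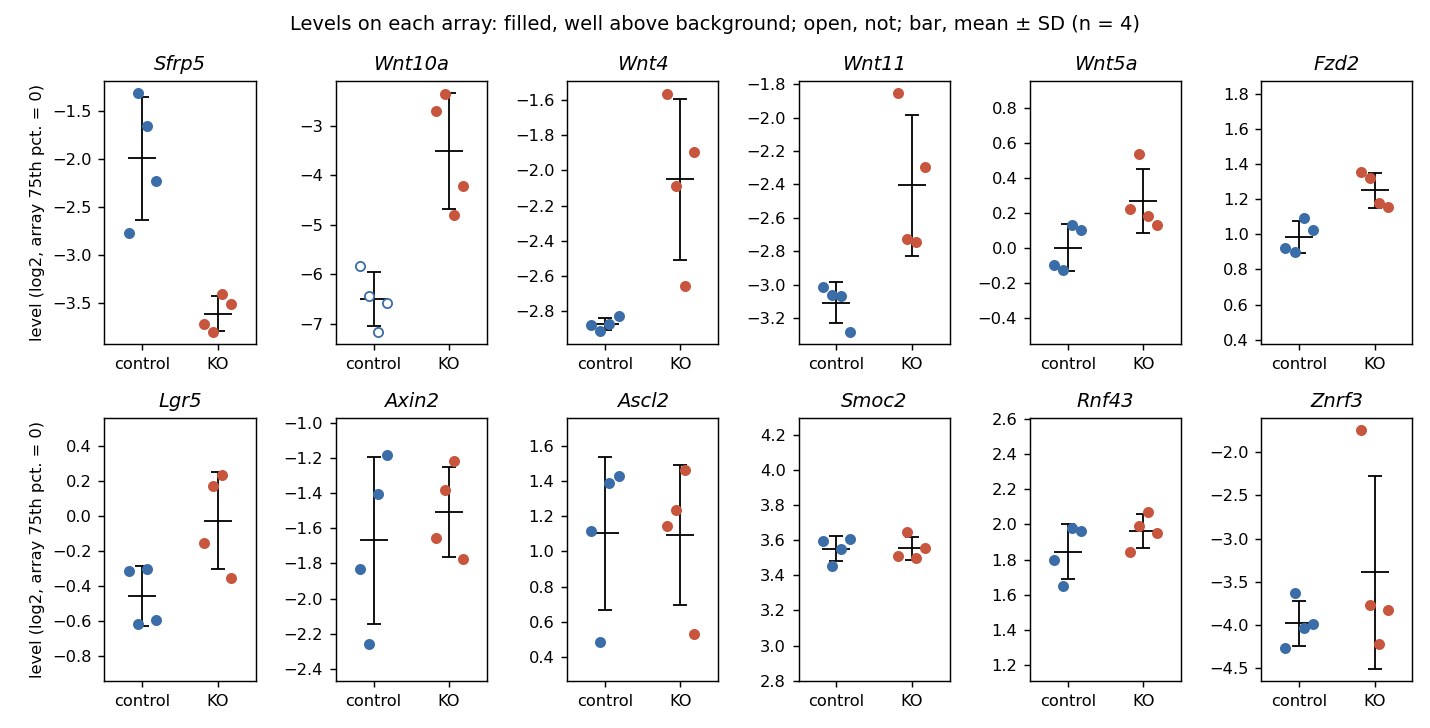
Level of 12 members on each array (log2, 75th percentile of the array at 0; vertical scales differ), with the mean and SD of each group of 4; open points were not well above background. Sfrp5 is lower and Wnt10a, Wnt4 and Wnt11 higher on all 4 KO arrays than on any control array, while Ascl2, Axin2 and Smoc2 overlap.

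Of the 4 R-spondins, Rspo4 was at background on all 8 arrays and the other 3 did not pass (limma; 0 in either direction at an unadjusted p under 0.05). Rspo1 differed by 0.16 (95% confidence interval -0.36 to 0.68), Rspo2 by 0.19 (-0.49 to 0.87) and Rspo3, an R-spondin of the mesenchyme around the crypt, by 0.11 (-0.27 to 0.49). Rspo1 was highest on control 2 (1.31) and KO 4 (1.74), and lower on the other 6 arrays.

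Of the 10 Frizzled receptors, 9 were tested and 0 passed (limma; 3 higher and 0 lower at an unadjusted p under 0.05); Fzd9 was at background on all 8 arrays. Fzd2, a receptor of Wnt5a in the mesenchyme, stood at 0.92, 0.90, 1.096 and 1.02 on the control arrays and 1.35, 1.32, 1.18 and 1.15 on the KO arrays. Its groups did not overlap, and the difference was 0.27 (SE 0.08, limma adjusted p 0.117); the second Fzd2 probe differed by 0.25. Fzd6 and Fzd3, receptors of planar polarity, differed by 0.39 (adjusted p 0.215) and 0.33 (adjusted p 0.165) with overlapping groups. Fzd1, Fzd10 and Fzd7 differed by 0.28, 0.14 and 0.12, and Fzd5, Fzd4 and Fzd8 by -0.03, -0.07 and -0.11. The interval for Fzd5, a receptor of the intestinal epithelium, was -0.24 to 0.18, and its second probe differed by 0.048; the second Fzd7 probe differed by 0.28.

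The co-receptors and R-spondin receptors did not pass either (limma; 4 tested, 1 higher and 0 lower at an unadjusted p under 0.05). Lgr5, the R-spondin receptor that marks crypt stem cells, stood at -0.31, -0.62, -0.30 and -0.59 on the control arrays and -0.15, 0.17, 0.23 and -0.35 on the KO arrays. The KO values were higher apart from KO 4, which lay within the control range. The difference was 0.43 (SE 0.15; 95% confidence interval 0.10 to 0.76; limma adjusted p 0.144), and 0.33 within row 1 and 0.35 within row 2. Lgr4, the more widely expressed R-spondin receptor, differed by -0.06 (-0.22 to 0.09), Lrp5 by -0.09 (-0.25 to 0.07) and Lrp6 by 0.24 (-0.02 to 0.49).

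Sfrp5, a secreted protein that binds Wnts and is made by endoderm of the gut, was 1 of the 8 secreted inhibitors and the 1 that fell; 0 rose (limma; 1 higher at an unadjusted p under 0.05). Its levels were -2.77, -1.31, -1.66 and -2.23 on control arrays 1 to 4. On KO arrays 1 to 4 they were -3.72, -3.80, -3.41 and -3.51. The KO arrays lay close together and all below the control arrays, which spread over more than 1 log2 unit with control 1 lowest. The difference was -1.62 (SE 0.28; 95% confidence interval -2.26 to -0.98; limma adjusted p 0.0138), a 3.07-fold lower level, and the probe was well above background on 8 of 8 arrays. The probe lies on mm9 chromosome 19, 42272509 to 42272568. With slide row as a block the difference was -1.40 (limma adjusted p 0.0553), with -0.80 within row 1, whose 1 control array is control 1, and -1.99 within row 2. The call was also lost without KO 2 (-1.55, limma adjusted p 0.0532) and without the filter (adjusted p 0.0543); with normexp background the difference was -0.99 and with the series matrix values -0.94, both past the threshold.

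**Figure D3:**
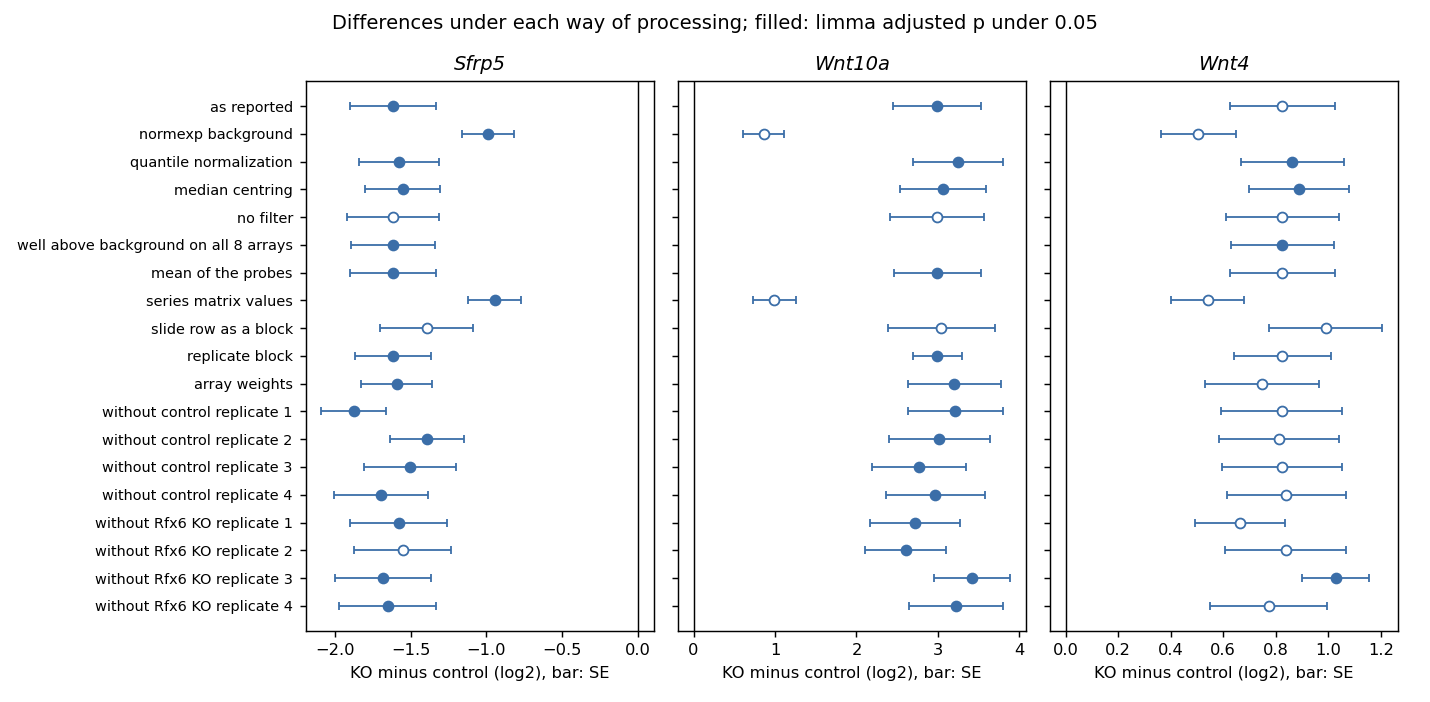
Difference (KO minus control, log2 units) of Sfrp5, Wnt10a and Wnt4 with its SE under each processing setting and with each array left out. Signs did not change, and Wnt10a, whose control values are at background, ran from 0.86 with normexp background to 3.42 without KO 3.

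Sfrp1 and Sfrp2, inhibitors made by gut mesenchyme, differed by 0.32 (limma adjusted p 0.415) and -0.21 (adjusted p 0.572), with overlapping groups. Dkk3, a divergent member of the Dickkopf family, differed by 0.44 (adjusted p 0.242), and Dkk2, an antagonist of Lrp6, by -0.06 (adjusted p 0.756). Sfrp4 and Dkk4 were at background on all 8 arrays. Dkk1, an antagonist of Lrp5 and Lrp6 and a target of the pathway, was well above background on 2 control arrays and 1 KO array and was not tested. It read -1.79 on control 1 and -2.57 on control 4 against -4.71 and -4.77 on the other controls, and between -5.59 and -4.47 on the KO arrays.

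The feedback inhibitors, which beta-catenin signalling itself switches on, did not pass (limma; 3 tested, 0 in either direction at an unadjusted p under 0.05). Axin2, the most used readout of the pathway, stood at -1.83, -2.26, -1.40 and -1.18 on the control arrays and -1.65, -1.38, -1.21 and -1.78 on the KO arrays. The groups overlapped over most of their range, and the difference was 0.16 (95% confidence interval -0.36 to 0.69); a second Axin2 probe, well above background on 5 arrays, differed by -0.07. Rnf43, the ligase that removes Frizzled receptors, stood at 1.79, 1.65, 1.98 and 1.96 on the control and 1.84, 1.99, 2.07 and 1.95 on the KO arrays, a difference of 0.12 (-0.10 to 0.34). Its relative Znrf3 stood between -4.26 and -3.63 on the control arrays and at -1.74, -3.77, -4.22 and -3.83 on the KO arrays. KO 1 was more than 2 log2 units above the other KO arrays; the difference was 0.59 (SE 0.48, limma adjusted p 0.526), 0.039 without KO 1 and 1.23 with slide row as a block (limma adjusted p 0.111).

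The stem cell genes Ascl2 and Smoc2 did not pass (limma; 0 in either direction at an unadjusted p under 0.05). Ascl2, a transcription factor needed by crypt stem cells, stood at 1.11, 0.49, 1.39 and 1.43 on the control arrays and 1.15, 1.23, 1.46 and 0.53 on the KO arrays. Each group held 1 low array, control 2 and KO 4, and the difference was -0.0099 (95% confidence interval -0.58 to 0.56). Smoc2, a secreted matrix protein of crypt stem cells, stood between 3.45 and 3.61 on the control and between 3.50 and 3.64 on the KO arrays, a difference of 0.0024 with a narrow interval of -0.17 to 0.17. The nuclear factors Tcf7 and Lef1, which carry the signal to DNA with beta-catenin, differed by 0.09 (limma adjusted p 0.766) and -0.41 (adjusted p 0.439). Lef1 was well above background on 3 of the 4 KO arrays; KO 4 read -5.05.

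The rest of the pathway was taken from a list of 74 other genes, of which 67 passed the filter. On the KO arrays 3 rose and 0 fell (limma; 12 higher and 4 lower at an unadjusted p under 0.05), which is 4.48% of those tested against 4.90% of all genes; the median difference was 0.08. Celsr1, a cadherin of planar cell polarity, stood at -0.88, -1.33, -0.86 and -0.84 on the control arrays and 0.47, 0.48, 0.09 and 0.27 on the KO arrays. Every KO array was above every control array, by 1.30 on average (SE 0.14, limma adjusted p 0.0014), and the call held under every alternative run for it.

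Olfm4 and Prom1 were the other 2. Olfm4, a secreted marker of crypt base cells, stood at -1.61, -1.77, -1.14 and -1.31 on the control arrays and -0.42, -0.46, -0.76 and -0.64 on the KO arrays, a difference of 0.89 (SE 0.15, limma adjusted p 0.0113). Prom1, a membrane protein of progenitor cells, stood between 1.58 and 2.03 on the control arrays and between 2.33 and 2.77 on the KO arrays, a difference of 0.69 (SE 0.13, limma adjusted p 0.0216). Groups did not overlap for either gene. With the replicate number as a block neither was called (adjusted p 0.0864 for Olfm4 and 0.0729 for Prom1), and Prom1 was not called without control 1, KO 1 or KO 4 (adjusted p 0.0664, 0.0591 and 0.0541) nor without the filter (adjusted p 0.0768).

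By list, 0 of 5 secretion and transport genes, 0 of 10 other inhibitors, 1 of 10 planar polarity and beta-catenin-independent receptors, 0 of 14 cytoplasmic genes, 0 of 10 nuclear genes, 0 of 11 targets and 2 of 9 crypt and stem cell genes passed, all of them higher (limma). At an unadjusted p under 0.05 the lists with 0 had 2 secretion genes, 2 inhibitors, 2 cytoplasmic genes, 1 nuclear gene and 3 targets; Notum and Nkd1 stand in 2 lists. Groups did not overlap for 10 of the 67 genes tested (14.9%, against 14.7% of all genes): the 3 that passed and Wls, Porcn, Sox9, Tert, Nkd1, Dvl1 and Csnk1e. Nkd1, Dvl1 and Csnk1e differed by 0.13, -0.22 and 0.30. Wls and Porcn, which release and acylate Wnts respectively, differed by 0.28 (limma adjusted p 0.0735) and by 0.34 (adjusted p 0.181). Sox9, a target of the progenitor zone, differed by 0.54 (adjusted p 0.0962), and Tert, the telomerase subunit, by -0.44 (adjusted p 0.0656). Ctnnb1, beta-catenin itself, differed by 0.03 and Notum, which inactivates Wnts, by -0.15.

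**Figure D4:**
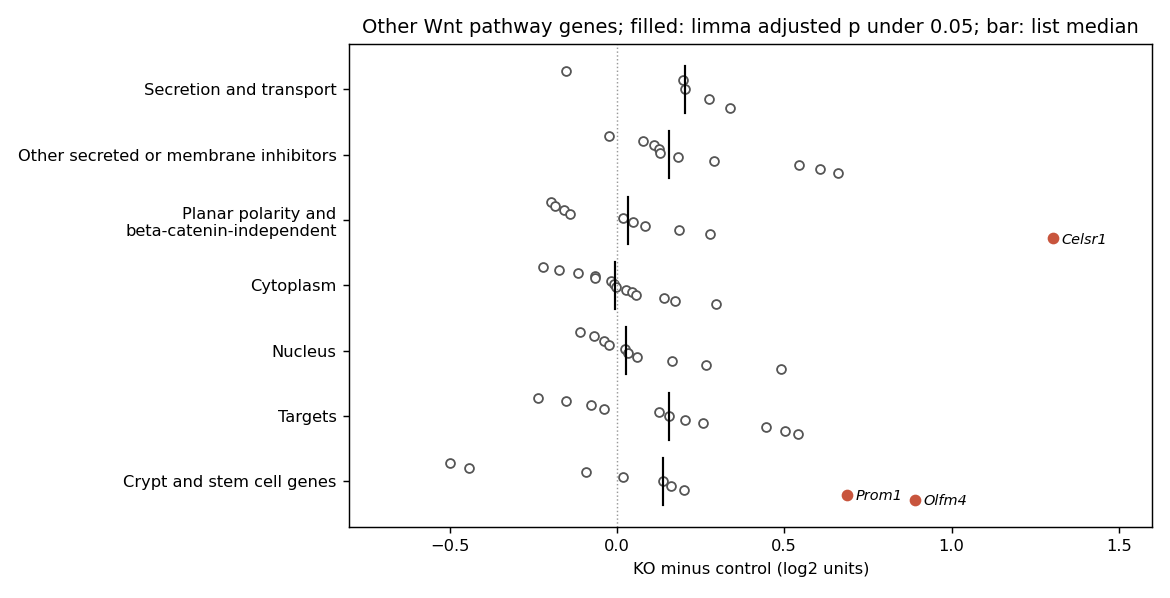
Difference (KO minus control, log2 units) of each tested gene of the other pathway lists, with a bar at each list's median; filled points passed the threshold. Celsr1, Olfm4 and Prom1 are the 3 that did, and list medians lie between -0.0064 and 0.20.

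Some markers of other cell types moved with the groups. Of the stomach epithelium markers 5 of 6 tested rose (Gkn1, Gkn2, Gkn3, Tff1 and Tff2). Gkn1, Gkn2 and Tff1, well above background on 2, 0 and 2 control arrays, passed the filter through the KO group alone, which favours a difference. Gkn3 and Tff2 were well above background on 4 control and 4 KO arrays. The summed signal of the list ran from 0.615 to 6.36 times the 75th percentile on the control arrays and from 378 to 710 on the KO arrays. Of the 4 stomach mesenchyme markers, Nkx3-2 was well above background on all 8 arrays (difference 0.0014), Isl1 on 4 control and 3 KO arrays (-0.86, limma adjusted p 0.0895), Six2 on 1 KO array and Barx1 on none. Kit and Ano1 of the 3 interstitial cell markers rose, with sums of 8.32 to 8.88 on the control and 10.5 to 12.2 on the KO arrays. Ttr and Fgb of the 5 liver markers rose, with sums over the list of 116 to 208 on the control and 231 to 284 on the KO arrays. Alb, Afp and Ahsg did not pass (limma adjusted p 0.417, 0.152 and 0.382), and their groups overlapped. Most of the sum was Afp, with mean levels of 7.12 on the control and 7.68 on the KO arrays. The part of these cell types in the rise of Wnt10a, Celsr1, Olfm4 and Prom1 and the fall of Sfrp5 was not tested. None of the 7 epithelium, 6 subepithelial mesenchyme, 6 smooth muscle, 5 mesothelium and 6 dividing cell markers passed in limma, with 4, 1, 0, 3 and 1 of them at an unadjusted p under 0.05.

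Exocrine pancreas, which lies against the duodenum, had 0 of 5 markers past the threshold (limma, 0 at an unadjusted p under 0.05), sums of 7.21 to 22.2 on the control and 5.18 to 17.3 on the KO arrays, and Pnlip at background on all 8 arrays. The mean level of these markers was 1.57, 0.07, 1.25 and 0.33 on control arrays 1 to 4 and 1.15, -0.05, 0.13 and -0.54 on KO arrays 1 to 4. Sfrp5 stood at -2.77, -1.31, -1.66 and -2.23 on control arrays 1 to 4. It stood at -3.72, -3.80, -3.41 and -3.51 on KO arrays 1 to 4. Whether pancreas tissue had a part in the Sfrp5 difference was not tested.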

How the data were processed

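Arrays of 4 control and 4 Rfx6 KO samples were grouped by their source labels. The authors deposited scanner files that give an intensity per spot, background-subtracted by Feature Extraction 10.10.1.1 and not scaled between arrays, per the file headers and the submitters' processing notes; the grid was built on mm9. Values of the deposited series matrix are intensities too; its columns share a median of 130, rank spots as the raw mean signals do (Spearman 0.998 to 0.999), and how they were scaled is not given in the sources used here.

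Of 62976 spots, 3671 control spots and 153 to 355 outlier spots per array were left out, and no gene spot was saturated. Spots of 1 probe were averaged (55681 probes), log2 taken and the 75th percentile of the array (636 to 741 signal units) subtracted. The filter left 31668 probes and 23282 genes. Names come from the files; of the probes, 26320 carried a current symbol, 2864 were named through accession and 492 through a synonym (GRCm38.p6 table), and 26005 kept the file's name. The KO and control arrays were compared in limma 3.58.1 (lmFit, then eBayes; R 4.3.3) with two-sided p-values. The bound for a probe at background divides the bright group by a floor: on each dim array, the lowest signal called well above background, or the probe itself where brighter. The fit was tested on simulated data. The number of arrays limits the precision.

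Full values are given for members past the threshold, for members whose groups did not overlap and for Lgr5, Axin2, Ascl2, Smoc2, Rnf43 and Znrf3; of the pathway lists, genes past the threshold, with Wls, Porcn, Sox9, Tert, Nkd1, Dvl1, Csnk1e, Ctnnb1 and Notum named after their values were seen. Members and lists were chosen with earlier results of these data known. Alternatives were leaving out each array, array weights, slide row or replicate number as a block, the series matrix, testing every probe or averaging them, no filter or one on all 8 arrays, and scaling by quantiles, the median or normexp (offset 50). Deviations from the group means were not shared by same-numbered arrays (correlations -0.07, -0.17, 0.07 and -0.41); they are treated as unpaired.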

Additional observations from a re-analysis of the deposited data

Results flagged for a closer look

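Among 78 groups of 4 values (36 members and 3 pathway genes), 4 had 1 array far from the other 3, where about 1 in 20, or 3.90, would be so by chance. Fzd4 was low on KO 4, at 1.68 against 1.84 to 1.85. Fzd6 was also low on KO 4, at -2.29 against -1.78 to -1.68. Fzd7 was low on control 1, at -2.44 against -1.89 to -1.81. Celsr1 was low on control 2, at -1.33 against -0.88 to -0.84, on the side away from the KO arrays.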

How the results depend on the processing

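The 36 members were fitted under each alternative where they could be, 685 values in all: 641 kept direction and side of the threshold, 7 lost a call (3 for Sfrp5 and 4 for Wnt10a), 4 gained one (Wnt4) and 33 changed sign. Where no cause is named it was not tested. Members past the threshold numbered 1 with normexp and with the series matrix, where 0 were higher, and 0 (0 lower, 0 higher) without the filter and with the slide row as a block (limma; 9 at an unadjusted p under 0.05 in each); 2 were higher under quantile normalization and median centring. Leaving out 1 array gave 1 to 3 members, 0 to 1 lower (0 without KO 2) and 1 to 2 higher. The replicate block called 1 of the other pathway genes and 414 genes in all, and the same 2 members, Sfrp5 and Wnt10a; array weights called 6 and 1964. Without the filter 497 genes passed over 36083 tested, and leaving out 1 array gave 580 to 1103, with fewer samples; the lowest were 592 without control 1, 713 without control 3, 595 without KO 1 and 580 without KO 2. The Wnt10a bound of 2.35-fold compares with 7.95-fold from the measured values, since the bound replaces control values at background.

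Sign changes were in members near 0. Ascl2 was 0.025 (quantile), 0.055 (median centring), 0.032 (series matrix) and 0.0041 (slide row), and Wnt16 0.0028, 0.0096 and 0.0048 under the first 3. Median centring gave Dkk2 0.0013, Fzd5 0.034 and Lgr4 0.0018. Normexp gave Rspo2 -0.012, the mean of probes gave Fzd5 0.0087 and its second probe 0.048. The slide row gave Smoc2 -0.025 and Wnt5b -0.0097, and array weights Smoc2 -0.023. Leaving out 1 array gave ranges across 0 for Ascl2 (-0.22 to 0.18), Axin2 (-0.034 to 0.32), Fzd5 (-0.068 to 0.028), Fzd7 (-0.032 to 0.23), Fzd10 (-0.047 to 0.28), Rspo1 (-0.053 to 0.28), Rspo3 (-0.044 to 0.17), Smoc2 (-0.031 to 0.022), Tcf7 (-0.029 to 0.18), Wnt9a (-0.010 to 0.23) and Wnt16 (-0.14 to 0.049). Slide as a block could not be fitted, since all arrays share 1 slide.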

Other observations

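Control 2 and KO 4 often stood at the same end of their groups, over all genes as well as among the members. Both were the lowest array of their group for 10 of the 36 members tested: Ascl2, Axin2, Lgr5, Fzd2, Fzd4, Fzd10, Lrp6, Dkk3, Sfrp1 and Wnt5a. Both were the highest for Lgr4, Rspo1 and Wnt9a. Over all genes with a value on every array, both were lowest for 18.1% and both highest for 22.1%, so members shared this pattern in the low direction for 27.8% and in the high direction for 8.33%. The dividing cell markers had a mean level of 2.40 on control 2 and 2.37 on KO 4 and between 2.69 and 2.85 on the other arrays. Endothelium, leukocyte, exocrine pancreas and colon markers also had their lowest mean level of each group on these arrays. Erythroid and stomach mesenchyme markers had their highest there, and the remaining cell type lists did neither. These values were looked up after the pattern was seen, and what sets the 2 arrays apart was not tested.

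KO 1 was the highest array of 8 for Wnt4, Wnt11, Znrf3, Wnt2b, Fzd2 and Lef1, and for Sfrp4, which was at background. For Fzd2 and Lef1 the next array was close: 1.35 against 1.32 on KO 2, and -3.60 against -3.67 on control 3. The share of all genes with KO 1 highest was not computed. Of the cell type lists, the epithelium, interstitial cell, stomach epithelium and liver markers also had their highest mean level on KO 1, and the other lists did not. The stomach epithelium markers averaged 3.65, 2.89, 2.76 and 3.53 on KO arrays 1 to 4, and the liver markers 4.01, 3.06, 3.63 and 3.05. The exocrine pancreas markers averaged 1.15 on KO 1, -0.54 to 0.13 on KO 2, 3 and 4, 1.57 on control 1 and 1.25 on control 3. Controls 1 and 3 read -2.88 and -2.88 for Wnt4 and -4.26 and -4.03 for Znrf3. These values were looked up after the pattern was seen, and what sets KO 1 apart was not tested.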
